A study of Mus musculus with 2 samples.

Results

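The E2F transcription factors and their DP dimerization partners were described in G1E-ER4 cells, across 10 genes of the 43346 gene rows measured: E2f1 to E2f8, Tfdp1 and Tfdp2. The genes were chosen by name, through the match of each deposited gene identifier to its symbol, with no threshold on a measured value. G1E-ER4 is an immortalized mouse erythroid line in which Gata1, the master erythroid transcription factor that the parental line lacks, was put back as a fusion that an estrogen receptor domain makes dependent on hormone. The cells had received 10 nM 17beta-estradiol, which activates the fusion, for 30 h before polyadenylated RNA was sequenced from both ends of each fragment. The series held 2 libraries, labelled biological replicates 1 and 2 of this single group. No untreated library was analysed here, so the data give levels in the induced state, ratios between genes and the difference between the 2 libraries, and no effect of estradiol.

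E2F proteins bind the promoters of genes for DNA replication and cell cycle progression, most of them as dimers with a DP protein. The pocket proteins RB1, RBL1 and RBL2 hold the typical E2F proteins in check until cyclin-dependent kinases phosphorylate them. E2F1, E2F2 and E2F3 are known mainly as activators, E2F4 and E2F5 as repressors that act with pocket proteins, E2F6 as a repressor that needs none, and E2F7 and E2F8 as atypical repressors that bind DNA without a DP partner. In mice, loss of E2f4 causes anemia through abnormal maturation of fetal red cells.

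Gene rows summed to 73681318 expected counts (estimated fragments per gene) in replicate 1 and 56056404 in replicate 2. All 8 erythroid marker genes reached 1 TPM (a level corrected for transcript length and scaled to one sum in every library) in both libraries, and their TPM summed to 225698 in replicate 1 and 231803 in replicate 2. Most of these sums came from Hbb-bs, at 154254 and 133818 TPM, and Hba-a1, at 67503 and 94658 TPM. The 8 markers include Gata1, at 2036 and 1608 TPM, which is the gene put back in this line. The 6 myeloid markers summed to 5.29 TPM in replicate 1 and 16.74 TPM in replicate 2. Spi1 was the highest of them, at 4.97 and 5.95 TPM, and made up most of the replicate 1 sum. The granule gene Mpo was at 0.19 and 3.96 TPM, Elane at 0.04 and 3.04 TPM, and Prtn3 at 0.08 and 3.76 TPM. S100a8 was at 0 counts in both. Summed levels were 20.56 and 15.92 TPM for 4 megakaryocyte markers, 0.58 and 0.73 TPM for 3 mast cell markers, 0.64 and 0.40 TPM for 4 lymphoid markers, and 0.03 and 0.01 TPM for 3 fibroblast markers. The mast cell gene Cpa3 and the fibroblast gene Col3a1 were at 0 counts in both libraries.

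E2F family genes are known to be regulated by E2F proteins, so the windows around RefSeq transcript starts of the members are shown where they hold an E2F motif. The windows run from 250 bases before to 50 bases after a RefSeq transcript start (build GRCm38.p6), and 12 of them belonged to 8 members; E2f4 and E2f5 are named only. The motifs searched on both strands were TTTCCCGC, TTTGGCGC, TTTCGCGC and TTTGCCGC. They were found in 5 windows of 4 members, one of the activators (E2f2), another activator (E2f3), an atypical repressor (E2f7) and a DP partner (Tfdp1). Over all 32851 windows of the table, 1.07% held TTTCCCGC, 0.514% TTTGGCGC, 0.323% TTTCGCGC, 0.441% TTTGCCGC and 2.26% any of them. Each window is printed in the direction of its gene, with the motif in capitals. In E2f3 and E2f7 the capitals are the opposite strand of TTTCCCGC, and in Tfdp1 of TTTCGCGC.
E2f2, chr4:136172024-136172323, plus strand: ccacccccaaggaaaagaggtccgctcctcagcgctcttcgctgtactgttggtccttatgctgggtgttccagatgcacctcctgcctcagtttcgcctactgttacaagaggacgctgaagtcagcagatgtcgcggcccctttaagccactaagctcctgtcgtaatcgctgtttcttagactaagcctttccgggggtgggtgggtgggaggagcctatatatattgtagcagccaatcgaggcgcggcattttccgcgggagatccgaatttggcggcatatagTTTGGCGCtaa
E2f3, chr13:29986014-29986313, minus strand: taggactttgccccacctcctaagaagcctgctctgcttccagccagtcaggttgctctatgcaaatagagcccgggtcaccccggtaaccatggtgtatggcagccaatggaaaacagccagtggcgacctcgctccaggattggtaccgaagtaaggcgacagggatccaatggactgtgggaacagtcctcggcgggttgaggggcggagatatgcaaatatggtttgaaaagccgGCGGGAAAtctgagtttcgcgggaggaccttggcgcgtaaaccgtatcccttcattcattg
E2f7, chr10:110745189-110745488, plus strand: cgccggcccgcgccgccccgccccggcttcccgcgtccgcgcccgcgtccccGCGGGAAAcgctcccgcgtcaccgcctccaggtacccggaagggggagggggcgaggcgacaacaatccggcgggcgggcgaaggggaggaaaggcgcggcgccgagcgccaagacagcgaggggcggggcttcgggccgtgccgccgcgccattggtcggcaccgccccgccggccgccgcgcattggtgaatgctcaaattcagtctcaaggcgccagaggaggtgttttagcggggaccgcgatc
Tfdp1, chr8:13338501-13338800, plus strand: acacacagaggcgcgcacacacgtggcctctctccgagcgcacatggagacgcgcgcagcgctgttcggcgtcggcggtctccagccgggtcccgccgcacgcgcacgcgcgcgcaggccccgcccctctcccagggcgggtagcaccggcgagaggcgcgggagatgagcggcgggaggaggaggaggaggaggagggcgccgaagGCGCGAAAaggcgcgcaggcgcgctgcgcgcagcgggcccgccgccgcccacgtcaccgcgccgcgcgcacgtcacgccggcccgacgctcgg

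The motif began at position 39 relative to the RefSeq start in E2f2, at -11 in E2f3, at -198 in E2f7 and at -43 in Tfdp1. A second Tfdp1 window overlapped the printed one and held the same occurrence. The other 7 windows held none of these letters. Several of the windows do not lie at the start of the coding transcript they were placed against, taken from GENCODE M21. The only E2f1 window starts 466 bases into E2f1-202, in intron 1, so it does not cover the region before that transcript. The window of E2f2 and of E2f3 that is not printed and both of Tfdp2 likewise start in introns, 8388 bases into E2f2-201, 1672 into E2f3-201, and 62401 and 62944 into Tfdp2-201. The starts of the printed windows stand at -120 relative to the first base of E2f2-201, at 0 for E2f3-201, at -74 for E2f7-204 and at -923 for Tfdp1-201. None of the 12 windows held the GATA motifs AGATAA or TGATAA, at least 1 of which occurred in 18.6% of all windows, and for E2f1 and Tfdp2 this concerns windows inside the gene alone. These are matches of letters within short windows, and binding was not measured. GC content ran from 39.3% to 80.7% in the 12 windows, and the shares over all windows were not matched for it.

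Of the activator genes, E2f2 held the highest level, which was also the highest of the family. E2f2 had 106 TPM in replicate 1, against 94.95 TPM in replicate 2, a mean of 101 ± 8.00 TPM (SD, n = 2), from 36300 and 24814 counts. It ranked above 86.8% of the 7570 protein-coding genes that reached 1 TPM in both libraries. E2f2 (chromosome 4, 136172394 to 136196057, plus strand of mm10) alone made up 41.7% and 43.0% of the summed TPM of the 8 E2F genes. E2f1 (chromosome 2, 154559407 to 154569892, minus strand) had 39.1 and 33.6 TPM, 36.4 ± 3.90 TPM (SD, n = 2), from 7517 and 4925 counts. The ranges of E2f2 and E2f1 did not overlap, and E2f2 was the higher by 1.42 and 1.47 on the log2(TPM + 1) scale within the libraries.

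E2f3, the remaining activator (chromosome 13, 29906575 to 29986063, minus strand), was listed at 33.2 and 31.0 TPM but from only 843 and 400 counts. Its level came from 2 transcripts of very different length. E2f3-202, a transcript of 216 bases in the deposited tables that is annotated as non-coding, took 93.79% of the gene's TPM in replicate 1 and 96.03% in replicate 2 from 144 and 81 counts. E2f3-201, the protein-coding transcript of 4702 bases, took 699 and 319 counts but only 2.06 and 1.23 TPM. Most counts therefore fell on the coding transcript, and most of the TPM on the short one, whose effective length after correction for fragment size was 62.0 bases in replicate 1 and 47.6 in replicate 2. With protein-coding transcripts alone, E2f3 averaged 1.65 ± 0.587 TPM (SD, n = 2) and was the lowest of the 10 genes. The later annotation release used here gives E2f3-202 a length of 389 bases, so the exons counted in the deposited tables are not known for it.

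Of the repressors that work with pocket proteins, E2f4 was the higher. E2f4 (chromosome 8, 105297663 to 105305370, plus strand) had 14.9 and 13.1 TPM, 14.0 ± 1.31 TPM (SD, n = 2), from 2045 and 1362 counts. E2f5 (chromosome 3, 14578641 to 14606309, plus strand) had 2.46 and 3.91 TPM from 295 and 356 counts, and was one of only 2 members, with E2f6, whose TPM was lower in replicate 1 than in replicate 2. Its annotated exons share 26 bases with those of 1810022K09Rik on the opposite strand, which had 176 and 90 counts, and the sources used here do not say whether the counting used strand. E2f6, the repressor found with Polycomb proteins (chromosome 12, 16810963 to 16839742, plus strand), had 4.39 and 5.07 TPM, 4.73 ± 0.481 TPM (SD, n = 2).

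The atypical repressors differed from each other in what carried their level. E2f8 (chromosome 7, 48866429 to 48881596, minus strand) had 32.9 and 24.7 TPM, 28.8 ± 5.81 TPM (SD, n = 2), from 8369 and 4779 counts, with protein-coding transcripts holding 99.8% of its TPM in replicate 1 and 100% in replicate 2. It shares 610 exon bases with Gm2788 on the opposite strand, which had 131 and 103 counts. E2f7 (chromosome 10, 110745439 to 110787384, plus strand) was listed at 21.7 and 14.5 TPM, 18.1 ± 5.09 TPM (SD, n = 2), from 1914 and 984 counts. The non-coding transcript E2f7-203, 438 bases long, held 70.58% and 72.15% of that TPM from 323 and 159 counts. Protein-coding transcripts of E2f7 together held 5.84 and 3.66 TPM, which leaves it below E2f8 by both measures. E2f7 also shares 86 exon bases with 1700020G17Rik on the opposite strand, which had 0 counts in both libraries.

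Tfdp2 (chromosome 9, 96196275 to 96323646, plus strand), encoding DP2, was the more abundant DP gene. Tfdp1, encoding DP1 (chromosome 8, 13338751 to 13378448, plus strand), had 2.24 and 1.64 TPM, 1.94 ± 0.424 TPM (SD, n = 2), against 10.9 and 8.38 TPM, 9.66 ± 1.81 TPM, for Tfdp2. The counts were 258 and 143 for Tfdp1 and 2037 and 1646 for Tfdp2. For Tfdp1 the deposited tables held 1 transcript, Tfdp1-201. In the later annotation release the gene begins at 13338751, which is -923 relative to the first base of Tfdp1-201. The Tfdp1 level therefore covers Tfdp1-201 alone, and exons outside it, if expressed, were not counted. The log2(TPM + 1) ratio of Tfdp1 to Tfdp2 was -1.88 in replicate 1 and -1.83 in replicate 2, a mean of -1.86 ± 0.20 (limma's SE, n = 2 libraries; adjusted p = 2.88e-19 in limma over 8246 genes), where 34.4% of all genes fitted passed as below Tfdp2. Protein-coding transcripts held 65.3% and 78.6% of the Tfdp2 TPM, and with them alone the ratio was -1.43 ± 0.14 (adjusted p = 3.09e-07 in limma). In TPM, the E2F1 to E2F6 genes that can pair with DP proteins summed to 200.4 and 181.6, and the 2 DP genes to 13.2 and 10.0. Their ratio was 15.2 in replicate 1 and 18.1 in replicate 2. With protein-coding transcripts alone it was 18.04 in replicate 1 and 18.45 in replicate 2.

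**Figure D1:**
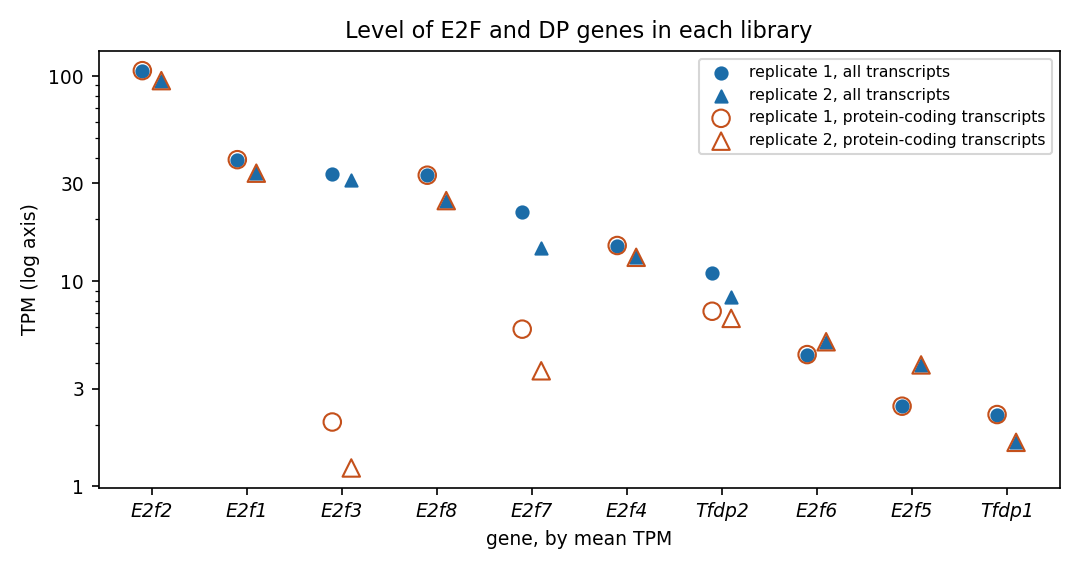
TPM (log axis) of each gene in replicate 1 (circles) and replicate 2 (triangles), filled for all annotated transcripts and open for protein-coding transcripts alone. Filled and open symbols coincide for E2f1, E2f2, E2f4, E2f5, E2f6, E2f8 and Tfdp1, and part for E2f3, E2f7 and Tfdp2.

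All 10 genes reached 1 TPM in both libraries, and the order of their means was E2f2, E2f1, E2f3, E2f8, E2f7, E2f4, Tfdp2, E2f6, E2f5 and Tfdp1. Of the 9 pairs of neighbours in that order, 7 had values in the 2 libraries that did not overlap. The pairs that overlapped were E2f3 with E2f8 and E2f7 with E2f4. With protein-coding transcripts alone the order was E2f2, E2f1, E2f8, E2f4, Tfdp2, E2f7, E2f6, E2f5, Tfdp1 and E2f3, and E2f7 with E2f6 and Tfdp1 with E2f3 overlapped. This second measure was added after the transcript values were seen.

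By role, the activators summed to 179 and 160 TPM, the repressors E2f4 and E2f5 to 17.4 and 17.0 TPM, and the atypical E2f7 and E2f8 to 54.6 and 39.2 TPM. With protein-coding transcripts alone these sums were 147 and 130 TPM, 17.4 and 17.0 TPM, and 38.7 and 28.4 TPM. The order of the roles was the same by both measures, and E2f2 then held 51.1% and 52.7% of the E2F total.

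The members with several transcripts mostly kept the same leading transcript, the one with the highest share of the gene's TPM. In 6 of 7 such members it was the same in both libraries, beside 89% of 5714 protein-coding genes with at least 2 annotated transcripts and 1 TPM in both libraries. Tfdp2 was the exception: the non-coding Tfdp2-214, 449 bases long, led in replicate 1 with 34.49% against 21.06% in replicate 2, and the coding Tfdp2-201, 7354 bases long, held 23.29% in replicate 1 and led with 36.53% in replicate 2. The Tfdp2-214 shares came from 82.6 and 28.0 counts, and the Tfdp2-201 shares from 1367 and 1259. By mean share, the leading transcript was not annotated as protein-coding in 2 of 10 members, E2f3 and E2f7, beside 20.1% of 7569 protein-coding genes at 1 TPM in both libraries.

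Counts told another order of transcripts than TPM in the genes with short non-coding transcripts. In E2f7 the coding E2f7-204, 3567 bases long, took the most counts in replicate 1, with 967 in replicate 1 and 236 in replicate 2. The longer coding E2f7-201, 5473 bases, took the most in replicate 2, with 562 in replicate 1 and 537 in replicate 2. E2f8-202 and E2f8-201, both coding, held 64.02% and 35.83% of E2f8 in replicate 1 and 72.20% and 27.80% in replicate 2. E2f5-202 held 60.82% and 58.57% of E2f5, and E2f5-201 held 39.18% and 41.43%. E2f1-202 and E2f2-201 held at least 98.96% of their genes' TPM in each library. E2f4, E2f6 and Tfdp1 had 1 transcript each in the deposited tables.

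**Figure D2:**
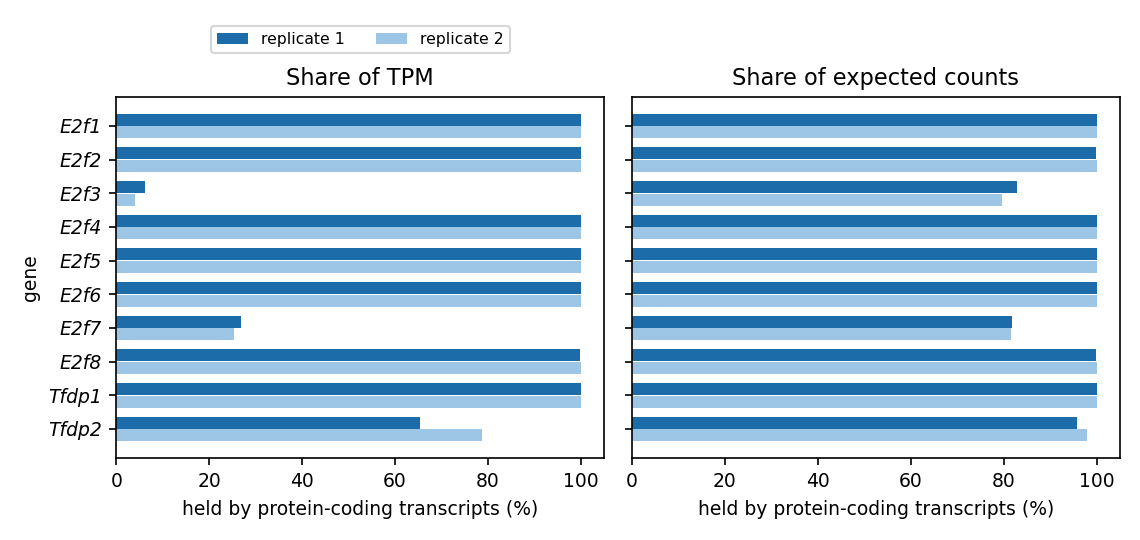
Share of each gene held by protein-coding transcripts (%), of its TPM on the left and of its expected counts on the right, in replicate 1 (dark bars) and replicate 2 (light bars). E2f3 stands at 6.20% and 3.97% of TPM but 82.9% and 79.8% of counts.

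Levels of the other members were compared with E2f4 within each library, as the difference of log2(TPM + 1), and tested with limma over all 8246 genes with a mean of at least 1 TPM. E2f4 was taken as the common base because of its known role in red cell maturation. Of the 9 members, 4 were above E2f4, 4 were below and 1 did not pass at an adjusted p of 0.05. Among all genes fitted, 43.3% passed as above E2f4 and 44.8% as below, so passing is common for any gene whose level differs from that of E2f4.

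E2f2 stood above E2f4 by 2.75 and 2.77, a mean log2 ratio of 2.76 ± 0.18 (limma's SE; adjusted p = 2.42e-25). E2f1 was above it by 1.32 ± 0.18 (adjusted p = 1.71e-10 in limma) and E2f8 by 0.98 ± 0.18 (adjusted p = 5.73e-07 in limma). Both libraries showed these directions. E2f3 passed as above E2f4 with all transcripts, by 1.14 ± 0.18 (adjusted p = 1.17e-08 in limma), and as below it with protein-coding transcripts alone, by a log2 ratio of -2.52 ± 0.14 (adjusted p = 8.90e-14 in limma). The direction of E2f3 against E2f4 thus turns on the short transcript.

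E2f7 did not pass, with a log2 ratio of 0.32 ± 0.18 (limma's SE; adjusted p = 0.0803), 0.51 in replicate 1 and 0.14 in replicate 2. On protein-coding transcripts it was below E2f4, at -1.41 ± 0.16 (adjusted p = 1.80e-08 in limma). E2f6 was below E2f4 at -1.39 ± 0.16 (adjusted p = 8.37e-13 in limma), E2f5 at -1.86 ± 0.16 (adjusted p = 3.49e-19 in limma) and Tfdp1 at -2.36 ± 0.15 (adjusted p = 3.26e-27 in limma). Tfdp2 was the closest of those below, at -0.50 ± 0.17 (adjusted p = 0.00552 in limma).

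On protein-coding transcripts 3 members were above E2f4 and 6 below, where 37.1% of 7741 genes passed as above and 50.9% as below. GC content differed among the members, from 44.7% in Tfdp2 and 46.6% in E2f5 to 56.3% in E2f2 and E2f4 and 58.1% in E2f1. It is a plain mean over all transcripts that the later annotation release lists for a gene, whether expressed or not. After adjustment for the trend of level with GC content, Tfdp2 was above E2f4 at 0.97 ± 0.17 (adjusted p = 5.72e-05 in limma), E2f7 was above it at 1.12 ± 0.18 (adjusted p = 1.90e-05 in limma), and E2f6 no longer passed at -0.30 ± 0.17 (adjusted p = 0.109 in limma). E2f1 (1.15), E2f2 (2.76), E2f3 (1.86), E2f8 (2.23), Tfdp1 (-1.27) and E2f5 (-0.51, from -0.90 in replicate 1 and -0.12 in replicate 2) kept their direction and passed in limma, with E2f3 and E2f8 further from E2f4 than before and Tfdp1 and E2f5 nearer to it. The standard errors rest mostly on the spread of all genes, since 2 libraries leave each gene little of its own.

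**Figure D3:**
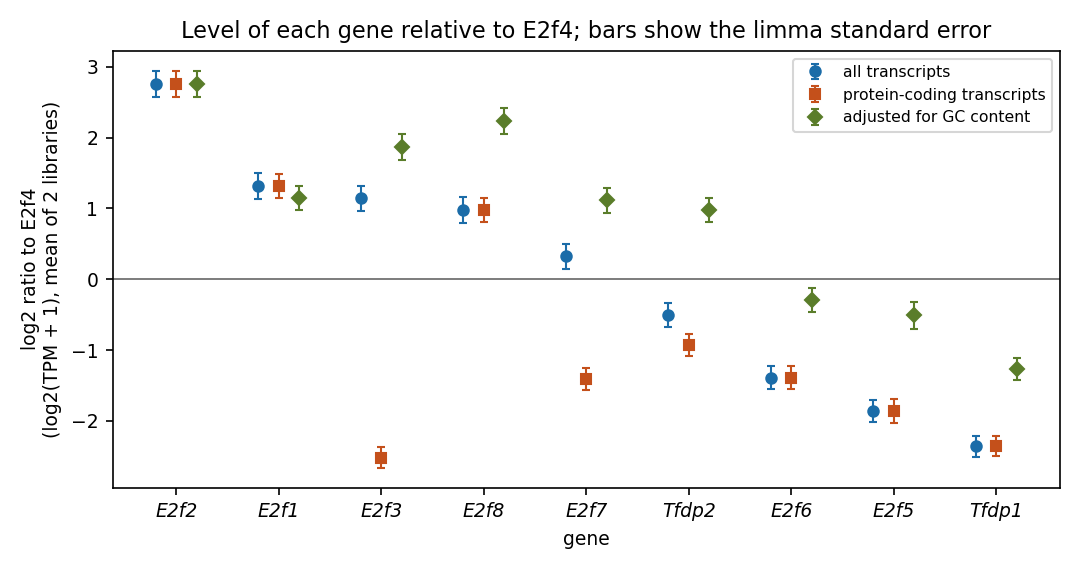
Log2 ratio of each gene to E2f4, from log2(TPM + 1) and as the mean of 2 libraries with bars of 1 limma SE, for all transcripts (circles), protein-coding transcripts (squares) and levels adjusted for GC content (diamonds). E2f3 lies at 1.14 with all transcripts and at -2.52 with protein-coding ones, and E2f2 lies at 2.76 in all 3.

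The 2 libraries were set against each other by counts scaled with the TMM method, with an interval for counting error alone. There is 1 library on each side, so these values carry no replicate check and no p. E2f3 was 1.53-fold higher in replicate 1, at a log2 ratio of 0.61 (95% interval 0.44 to 0.79), and E2f5 was 1.66-fold higher in replicate 2, at -0.73 (-0.96 to -0.51). The other 8 members differed by less than 1.5-fold. Among 10445 genes with at least 20 summed counts, 10.7% were at least 1.5-fold higher in replicate 1 and 5.16% at least 1.5-fold lower, so 1 of 10 members in each direction is near what all genes gave.

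The atypical repressors were both higher in replicate 1, E2f7 by a log2 ratio of 0.50 (0.38 to 0.61) and E2f8 by 0.34 (0.29 to 0.40). E2f1 stood at 0.15 (0.09 to 0.20), E2f2 at 0.09 (0.06 to 0.11) and E2f4 at 0.12 (0.02 to 0.22), all close to the median of all genes at 0.01 and inside their quartiles of -0.21 and 0.28. Tfdp1 stood at 0.39 (0.09 to 0.69), Tfdp2 at -0.16 (-0.25 to -0.06) and E2f6 at -0.28 (-0.43 to -0.13). The ratio was above 0 in 7 of 10 members, with a median of 0.13, beside 4852 of 9552 protein-coding genes with at least 20 summed counts. By deposited TPM in place of scaled counts, E2f3 stood at only 0.10 and Tfdp2 at 0.38, which turns its sign. The myeloid markers Mpo, Elane and Prtn3 were lower in replicate 1, as given above, while Spi1 stood at -0.36 by scaled counts, within 1.5-fold. The part of the myeloid difference in the ratios of E2f5 and E2f6 was not tested.

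**Figure D4:**
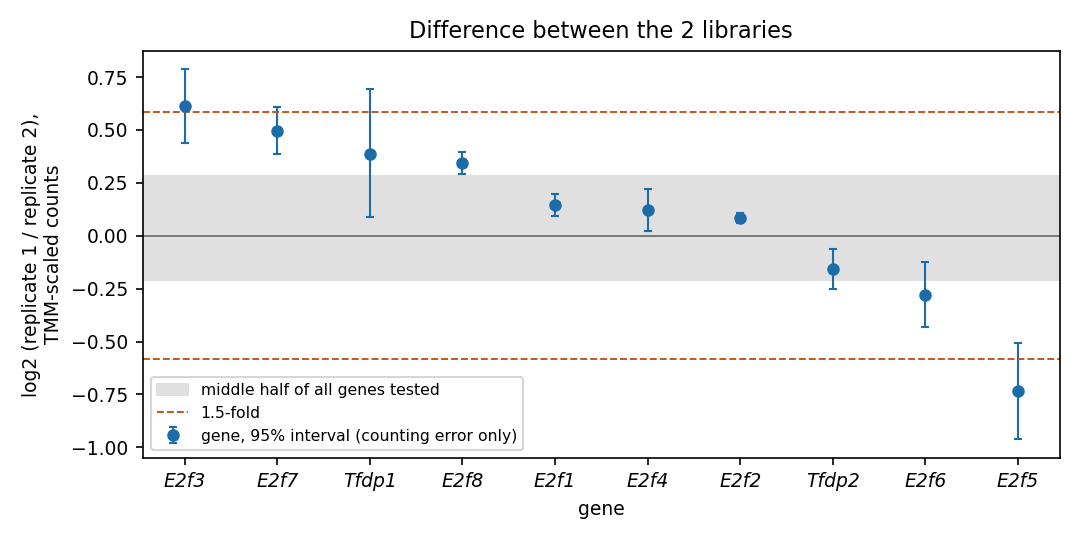
Log2 ratio of TMM-scaled counts, replicate 1 over replicate 2, with 95% intervals for counting error only. The grey band spans the quartiles of all genes tested (-0.21 to 0.28) and the dashed lines mark 1.5-fold. E2f3 and E2f5 lie past the lines.

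Of the 3 pocket protein genes, Rb1 was the highest. Rb1 had 26.2 and 24.1 TPM, Rbl1 4.47 and 4.07 TPM, and Rbl2 3.53 and 3.74 TPM. All 3 reached 1 TPM in both libraries, and the median was 4.27 TPM, beside 15.4 TPM over the 7570 protein-coding genes that did so and 0.015 TPM over all 21474. For the lists that follow, 912 of the 9552 protein-coding genes with at least 20 summed counts were at least 1.5-fold higher in replicate 1 and 413 at least 1.5-fold lower. The pocket protein genes' log2 ratios between the libraries lay within 1.5-fold, with the widest at 0.19 in Rbl1.

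Kinases and cyclins that act on pocket proteins were led by Ccnd3, the gene of cyclin D3, with 1474 and 1315 TPM. Cdk4, which pairs with D-type cyclins, had 308 and 232 TPM, and Ccne1, the gene of cyclin E1, 134 and 166 TPM. Ccnd1 had 0 counts in replicate 1 and 1 in replicate 2, and the list median was 9.32 TPM, with 6 of the 8 genes at 1 TPM or more in both libraries. None was past 1.5-fold between the libraries; the widest was Ccne2 at a log2 ratio of 0.40.

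Of 7 genes for inhibitors of these kinases, 4 reached 1 TPM in both libraries. Cdkn1a, encoding p21, had 155 and 194 TPM, Cdkn2c, encoding p18, 139 and 173 TPM, and Cdkn1b, encoding p27, 144 and 166 TPM, and the list median was 40.9 TPM. Cdkn2b and Cdkn1c had 0 counts in both libraries. All 4 with at least 20 counts were lower in replicate 1, none by 1.5-fold, and Cdkn2c was the widest at -0.41.

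The MuvB and MYB genes, whose products form the DREAM complex with E2F4 and pocket proteins or activate mitotic genes, were led by Lin37 at 134 and 107 TPM. Mybl2 had 68.3 and 58.5 TPM and Rbbp4 32.7 and 24.0 TPM, and the list median was 25.7 TPM, with 5 of the 7 genes at 1 TPM or more in both libraries. Lin52 was the lowest at 0.30 and 0.16 TPM from 45 and 18 counts, and the only one past 1.5-fold, at a log2 ratio of 0.86. The 9 Polycomb partners of E2F6 had a median of 10.6 TPM, 8 of them reached 1 TPM in both libraries and none was past 1.5-fold. Max, the dimerization partner of MYC and MGA, led with 103 and 109 TPM, Ring1 had 33.95 and 43.68 TPM and Cbx3 37.1 and 30.6 TPM. Mga was the lowest at 0.89 and 0.69 TPM, and Pcgf6 differed most between the libraries at -0.53.

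Genes whose products bind or degrade E2F proteins or their regulators, 7 in all, had a median of 54.3 TPM, and 6 reached 1 TPM in both libraries. Ccna2, the gene of cyclin A2, led with 469 and 502 TPM, followed by Cdc20 with 189 and 174 TPM and Fzr1 with 71.6 and 64.3 TPM. Skp2 was the lowest at 0.24 and 0.21 TPM. Of these 7 genes, 3 were at least 1.5-fold higher in replicate 1 and none lower, beside 10.7% and 5.16% of all genes. They were Cdk1 at a log2 ratio of 1.35, Fbxo5 at 0.71, and Skp2 at 0.61 from 61 and 29 counts. Cdk1 had 24.4 TPM from 734 counts in replicate 1 and 8.13 TPM from 209 counts in replicate 2. By deposited TPM, 2 of the 7 genes were past 1.5-fold higher in replicate 1.

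Well-known target genes of E2F proteins, 30 in all, had a median of 15.5 TPM, and 27 reached 1 TPM in both libraries. Rrm2, a subunit of ribonucleotide reductase, had 221 and 126 TPM, Slbp, which binds histone mRNA, 151 and 123 TPM, and Mcm2, a subunit of the replicative helicase, 153 and 117 TPM. The ratio of replicate 1 to replicate 2 was above 0 for 29 of the 30, with a median log2 ratio of 0.39, beside 4852 of 9552 protein-coding genes and a median of 0.01. The list is not complete, and known targets placed in the lists above were not counted in it. Among those, Ccne1 stood at -0.29 and Ccna2 at -0.11, while Mybl2 stood at 0.28 and Cdk1 at 1.35. Of the 30 targets, 5 were past 1.5-fold higher and none lower, beside 912 and 413 of the 9552 protein-coding genes. They were Pola1 at 0.98, Pcna at 0.82, Cdc45 at 0.77, Rrm2 at 0.74 and Orc1 at 0.71. Scaled by library totals, 30 were above 0 and 10 past 1.5-fold higher, with a median of 0.46. The same scaling put 5700 of the 9552 protein-coding genes above 0 and 1132 past 1.5-fold higher, with a median of 0.08. With TMM scaling, E2f1 at 0.15, E2f2 at 0.09 and E2f8 at 0.34 lay below the target median of 0.39. E2f3 at 0.61 and E2f7 at 0.50 lay above it. By deposited TPM the target median was 0.44, with E2f7 at 0.58 and E2f3 at only 0.10.

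**Figure D5:**
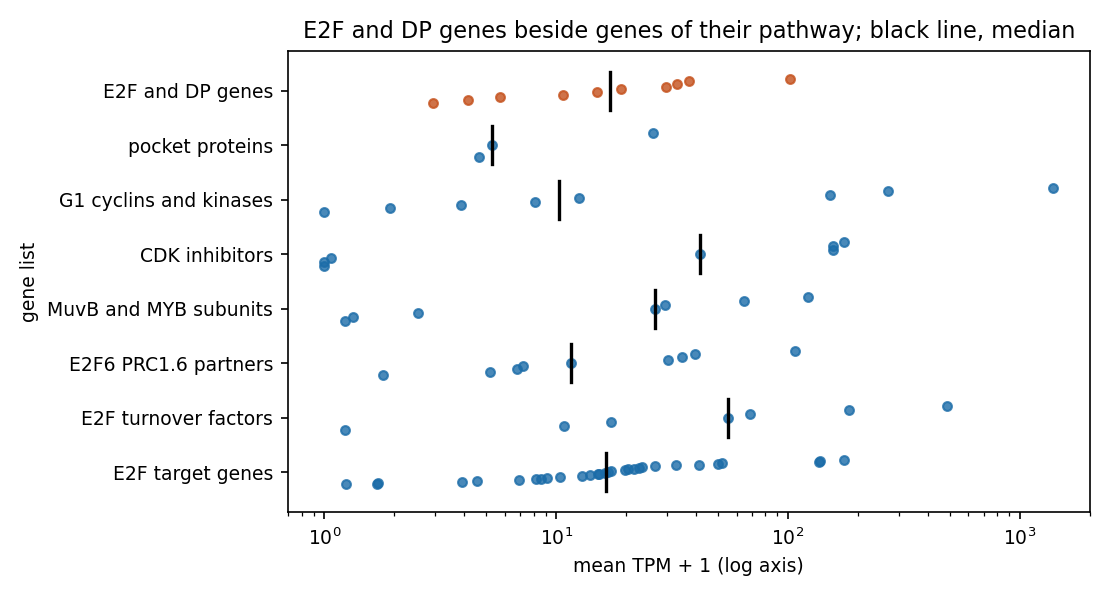
Mean TPM + 1 (log axis) of the E2F and DP genes and of the genes in each list of their pathway, 1 point per gene, with the list median as a black line. The E2F and DP genes run from Tfdp1 at 1.94 TPM to E2f2 at 101 TPM, and Ccnd3 lies furthest right.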

How the data were processed

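Polyadenylated RNA of 2 libraries of 1 group was measured. Per the deposited description files, values refer to mm10 and GENCODE M4. The aligner, the quantifier and strand use in counting were not given in the sources used here. Expected counts, as deposited, estimate the fragments of each gene or transcript. The deposited TPM divide counts by effective length and sum alike in every library, so a few fragments on a very short transcript give a high TPM. FPKM and posterior mean TPM, also deposited, served as alternatives. The authors' percent of gene TPM gave transcript shares. No column held values of another sample.

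GENCODE M21, on the same build, gave names, transcript types, coordinates and GC content and matched 42462 of 43346 gene rows. Rows named by a number (26248) or otherwise without a gene identifier (97) were left out; they held 5 counts in replicate 1 and 4 in replicate 2. Promoter windows are RefSeq's.

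Ratios within a library used log2(TPM + 1), which understates differences of low genes, tested against 0 with limma 3.58.1 (intercept only, trended prior) and adjusted by Benjamini-Hochberg over all genes with a mean of at least 1 TPM. The labels call the libraries biological replicates and say no more, so no spread beyond these 2 libraries enters the p-values. They rest mostly on the spread of all genes between these 2, and little on that of each member. Libraries were compared by rounded expected counts scaled with TMM in edgeR 4.0.16, without a test, over genes with at least 20 summed counts; a difference of 1.5-fold was counted. Intervals are exact at 95% (Clopper-Pearson) and cover counting error only. R 4.3.3, Python 3.11.15, pandas 2.3.3 and scipy 1.17.1 were used. The fit was run on simulated data with the same spread for every gene, so it was not tested for genes of unequal spread.

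The members and lists were chosen with earlier results of these data known. Of each pathway list the 3 highest genes by mean TPM, the lowest and the widest ratio between the libraries are named, except 1 gene that is not reported here; Fbxo5, Cdkn1c and the targets past 1.5-fold were added after their values were seen. Alternatives were a pseudocount of 0.1, no filter, FPKM, posterior means, GC adjustment, other scalings (DESeq2 1.42.0 size factors among them) and leaving out each replicate.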

Additional observations from a re-analysis of the deposited data

How the results depend on the processing

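The ratios of members to E2f4 were recomputed with a pseudocount of 0.1 TPM, without the filter, from posterior means, from FPKM, with GC adjustment and without each replicate, and, chosen after the data were seen, from protein-coding transcripts alone. Direction reversed for E2f3 (-2.52) and E2f7 (-1.41) with protein-coding transcripts and for Tfdp2 (0.97) with GC adjustment. With GC adjustment E2f6 no longer passed (-0.30), E2f7 passed (1.12) and only 2 members stayed below E2f4, E2f5 and Tfdp1; with posterior means Tfdp2 no longer passed (-0.45, adjusted p = 0.0989 in limma). Because the short transcripts hold the TPM of E2f3 and E2f7, leaving them out sets the new direction by construction; the cause of the GC changes was not tested. By deposited TPM 0 members were past 1.5-fold higher in replicate 1, and at 2-fold there were 0 in either direction. Members above E2f4 numbered 6 with GC adjustment and 3 with protein-coding transcripts, against 4, and members below it 3 with posterior means and 6 with protein-coding transcripts, against 4. The ratios that were tested under these alternatives otherwise kept their direction and their side of the threshold. The size of the adjusted p-values changed widely with the setting. For E2f2 over E2f4, limma gave 5.13e-46 with a pseudocount of 0.1 TPM, at a log2 ratio of 2.84. From posterior means it gave 1.08e-05, at 2.76. The exponents are therefore no measure of how firm a ratio is with 2 libraries.

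Without replicate 1 or replicate 2 the ratios to E2f4 are single values with no test: 1.30 to 1.33 for E2f1, 2.75 to 2.77 for E2f2, 1.102 to 1.184 for E2f3, -2.20 to -1.52 for E2f5, -1.56 to -1.21 for E2f6, 0.14 to 0.51 for E2f7, 0.87 to 1.09 for E2f8, -2.42 to -2.30 for Tfdp1 and -0.59 to -0.42 for Tfdp2, with Tfdp1 over Tfdp2 at -1.88 to -1.83. No paired analysis was possible because both libraries belong to 1 group. Depth limits Tfdp1 most among the members, at 258 and 143 counts, and the short transcripts of E2f3 and Tfdp2, at 144 and 81 and at 82.6 and 28.0 counts.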
